A study of Mus musculus with 2 samples.

Results

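Of 21938 protein-coding mouse genes, 576 had closed chromatin at the annotated 5' end and open chromatin at another annotated transcription start site (TSS) more than 2 kb inside the gene, in kidney. The genes were chosen from peak calls of DNase-seq, an assay in which the enzyme DNase I cuts accessible DNA. A gene was taken when neither of 2 libraries had a peak within 500 bp of the 5' end of the gene record and both libraries had a peak within 500 bp of an inner TSS. Peak calls at both places therefore define the genes and are no finding about them. Each library came from the kidney of a 25-day-old male B6CASTF1/J mouse, a first-generation cross between the strains C57BL/6J and CAST/EiJ. There was no treatment, no altered allele and no second condition, so every value below describes 1 group of 2 libraries, called replicates 1 and 2.

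Many mammalian genes have more than 1 promoter. Alternative promoters can serve different tissues, and they can give transcripts that differ only in the untranslated leader or proteins that differ at the amino terminus. Promoters with many CpG dinucleotides are commonly used in most cell types, whereas CpG-poor promoters are more often used in few. The gene record in an annotation begins at the most upstream start known from any tissue, which need not be the start used in the tissue under study.

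The 100 bases upstream of the start are shown for genes that carry the main contrasts: Hnf4a and Tpm3 at both starts, and then a brush-border gene, an endothelial gene, a nuclear receptor gene and 3 genes with high internal peaks. Capitals mark bases inside a footprint of both libraries, a footprint being a short protected stretch within open chromatin. The sequence is that of the reference assembly GRCm38.p6 (mm10), read on the strand of the gene, with the TSS directly after the last base.
Hnf4a internal TSS, chr2:163547087-163547186, plus strand: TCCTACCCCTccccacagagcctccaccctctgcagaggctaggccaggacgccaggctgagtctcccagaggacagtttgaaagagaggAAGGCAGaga
Hnf4a 5' end, chr2:163506708-163506807, plus strand: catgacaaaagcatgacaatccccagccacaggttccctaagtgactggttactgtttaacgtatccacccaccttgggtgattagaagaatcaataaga
Tpm3 internal TSS, chr3:90079440-90079539, plus strand: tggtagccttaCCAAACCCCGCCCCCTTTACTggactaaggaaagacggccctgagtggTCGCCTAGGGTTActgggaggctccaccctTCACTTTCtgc
Tpm3 5' end, chr3:90072549-90072648, plus strand: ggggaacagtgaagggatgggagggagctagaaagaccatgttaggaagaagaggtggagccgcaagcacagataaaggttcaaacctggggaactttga
Mme internal TSS, chr3:63295995-63296094, plus strand: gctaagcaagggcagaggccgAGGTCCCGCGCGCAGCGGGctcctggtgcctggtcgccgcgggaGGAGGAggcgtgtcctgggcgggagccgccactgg
Egfl7 internal TSS, chr2:26583764-26583863, plus strand: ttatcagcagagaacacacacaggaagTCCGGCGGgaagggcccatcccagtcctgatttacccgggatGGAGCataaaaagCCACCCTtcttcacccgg
Vdr internal TSS, chr15:97908311-97908410, minus strand: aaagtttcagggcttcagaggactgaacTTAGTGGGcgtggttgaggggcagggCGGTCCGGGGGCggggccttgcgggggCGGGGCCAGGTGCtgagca
Hdac4 internal TSS, chr1:92180342-92180441, minus strand: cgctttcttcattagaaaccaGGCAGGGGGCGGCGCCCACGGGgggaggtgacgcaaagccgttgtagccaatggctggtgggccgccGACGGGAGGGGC
Tollip internal TSS, chr7:141902488-141902587, minus strand: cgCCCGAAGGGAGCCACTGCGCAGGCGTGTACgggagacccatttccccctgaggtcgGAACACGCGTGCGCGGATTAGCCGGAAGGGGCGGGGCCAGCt
Ctnnb1 internal TSS, chr9:120933300-120933399, plus strand: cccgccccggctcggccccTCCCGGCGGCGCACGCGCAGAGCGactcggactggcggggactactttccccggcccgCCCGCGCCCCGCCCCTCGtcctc
The stretches at the closed 5' ends of Hnf4a and Tpm3 held no footprint base in either library. The internal stretch of Tollip held 71 bases in footprints of both libraries, that of Tpm3 42, that of Mme 25 and that of Hnf4a 17. The letters GGGCGGG, the core of the site of SP and KLF proteins, or their reverse complement stood wholly in capitals upstream of Tollip, Tpm3 and Ctnnb1. Upstream of Ctnnb1 this held for the copy at -16 bp, while the copies at -27 and -100 bp had 3 and 0 letters in capitals. The copies upstream of Vdr, at -38 and -22 bp, had 4 letters in capitals each. Upstream of Mme, and at -26 bp upstream of Abcg2, the letters stood outside the footprints. At the internal start of Abcg2 a footprint of both libraries covered the palindrome TGACGTCA, the site of CREB and ATF proteins, which is shown with its flanks.
Abcg2, chr6:58640497-58640526, plus strand: ggcgGCGCGAGCTGACGTCACGGCGGtcgg

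Replicate 1 had 125393 peaks and 237471 footprints, and replicate 2 had 177001 peaks and 493495 footprints, so that more was called in replicate 2. The height of a peak is the deposited signal, which appears to be scaled to depth. Of 15 kidney marker genes, 11 had a peak at the 5' end in both libraries and 13 had one at any TSS. Of 7 markers of other organs, 0 had a peak at the 5' end in both libraries and 1, Ins2, had one at another TSS. The tissue is a mixture of cell types, so an open site in few cells and a weakly open site in many cells cannot be told apart.

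The 576 genes came from 7554 genes with no peak at the 5' end in either library, of which 2128 had an inner TSS more than 2 kb inside. The share with an inner peak in both libraries was thus 27.1%. Among 2322 genes with an open 5' end and an inner TSS, the share was 44.7%. Taken by start, 1099 of 3176 inner TSSs of closed genes, or 34.6%, had a peak in both libraries. Of 108604 stretches of the same width in the closed genes, away from every TSS, 3581 or 3.3% did. A further 80 closed genes had an inner peak in 1 library only, 26 in replicate 1 and 54 in replicate 2.

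The count depends on which transcript sets the 5' end. The 5' end belonged to a transcript of the basic annotation, which leaves out partial models, in 279 of the 576 genes. When the most upstream basic transcript was taken as the 5' end instead, 349 genes met the rule. Where the limits fell, Snrpc at 2005 bp from the 5' end, Morf4l2 at 2029 bp and Plch2 at 2032 bp were just inside, while Prss57 at 1976 bp and Sult1b1 at 1973 bp were just outside. The closest peak to a 5' end called closed lay 507 bp away, in Cracr2b and in Klhl33. The ribosomal protein gene Rpl3 had a peak of height 6.40 in replicate 1 at 508 bp from its 5' end. On the other side of that limit, Tmem120b had a peak at 498 bp and Git2 at 497 bp. A peak lay within 1 kb of the 5' end in 84 of the genes and within 2 kb in 178, and none lay within 5 kb in 183.

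The deposited false discovery rates per base list more of the genome than the peaks cover. They come from the same libraries as the peaks that chose the genes, so few listed bases at the 5' ends follow largely from that choice. Replicate 1 had a base with a rate below 0.05 within 500 bp of the 5' end in 15 genes, or 2.60%, and replicate 2 in 28 genes, or 4.86%. In 544 genes neither library had such a base. Among the 1552 closed genes with no shared inner peak the shares were 1.35% and 2.06%.

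The lowest, median and highest height were 0.179, 4.03 and 31.9 in replicate 1 and 0.119, 3.74 and 36.7 in replicate 2. The median inner peak stood at percentile 86.1 among all peaks of replicate 1 and at percentile 87.8 in replicate 2. Peaks at open 5' ends had a median of 6.87 and 6.42, and inner peaks of genes with an open 5' end had 3.32 and 3.41. The inner peak of each gene was the highest at any of its inner TSSs, which raises these medians. It was also the highest peak of the whole gene body in both libraries in 293 of the 525 genes with several peaks in each library.

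**Figure D1:**
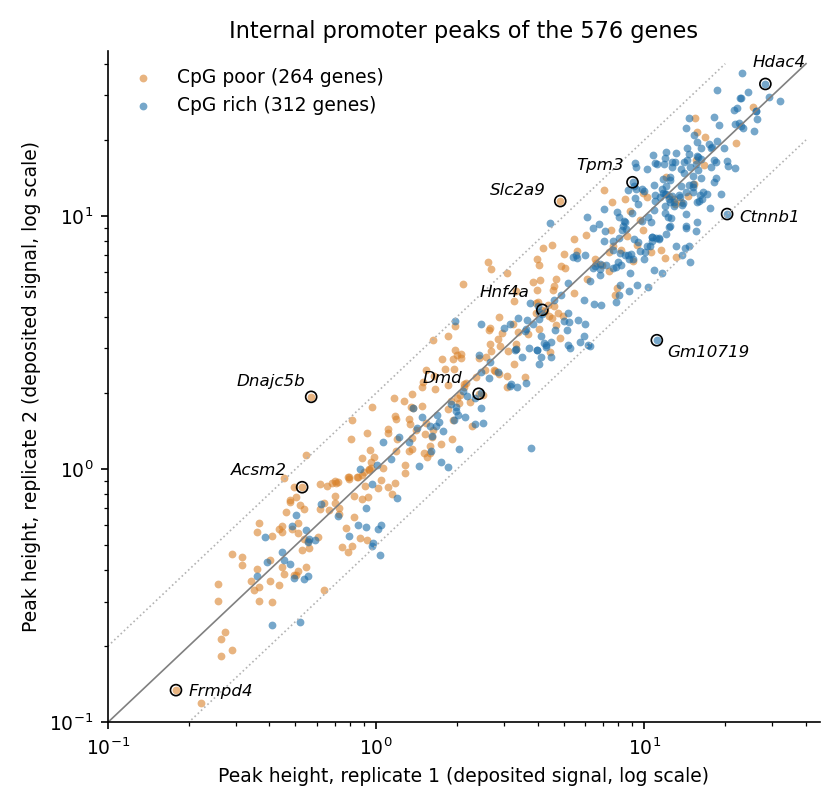
Height of the internal promoter peak in replicate 1 (x axis) and replicate 2 (y axis), both on log scales in the unit of the deposited signal, with 1 point per gene, blue for 312 CpG-rich and orange for 264 CpG-poor starts. The solid line marks equal heights and the dotted lines 2-fold differences, and 562 of the 576 genes lie between the dotted lines, with Slc2a9, Gm10719 and Dnajc5b outside them.

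Both libraries gave close heights for nearly all of the genes. The log2 ratio of replicate 2 to replicate 1 had a median of -0.05 and an SD of 0.46 over the 576 genes, and 562 heights were within 2-fold. The median ratio was -0.15 at the CpG-rich and 0.08 at the CpG-poor inner starts. Peaks at the open 5' ends of 13510 genes had a median ratio of -0.04 and an SD of 0.47, so this closeness was not particular to inner starts. The peaks of both libraries overlapped each other at 553 of these starts, and at 23 they were separate peaks in the same window. Over the 553 genes alone, the SD was 0.46 and 540 heights were within 2-fold. The plot of heights shows the 14 exceptions, among them Gm10719 (11.1 in replicate 1 and 3.23 in replicate 2) and Dnajc5b (0.573 and 1.93). The heights at Slc2a9, which encodes the urate transporter GLUT9, were 4.85 and 11.5. Gm10719 is a predicted gene.

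The 15 highest inner peaks were ranked by the geometric mean of both libraries. Hdac4, a class IIa histone deacetylase gene, had heights of 28.2 and 33.3 in replicates 1 and 2 at a start 15358 bp inside. Tollip, which encodes an adaptor of Toll-like receptor signalling, had 29.1 and 29.4 at 16020 bp. At Ppp2r5a, a regulatory subunit gene of protein phosphatase 2A, the libraries had separate peaks, of 23.2 centred at -149.5 bp in replicate 1 and of 36.7 centred at -579.5 bp in replicate 2. Kat6b, a histone acetyltransferase gene, had 22.6 and 29.2, and Stag1, a cohesin subunit gene, had 25.6 and 21.7. Glo1, the glyoxalase gene, had 25.4 and 27.0 and was the single gene of the highest 15 below the CpG-rich limit. The remainder of the highest 15 were Usp37, Dgcr2, Desi1, Xrcc6, Dcun1d4, Cmtr2, Tbc1d14, Aktip and Iffo2, all with heights of at least 18.6 in each library.

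Some of these starts lie beside another gene. A TSS of another gene was within 500 bp of the inner start in 70 of the 576 genes. Such a neighbour was protein-coding on the same strand in 10 genes and protein-coding on the opposite strand in 28. It was of another type on the opposite strand in 33 and of another type on the same strand in 1. A gene with several neighbours, such as Tmem217, can count in more than 1 of these classes. The peak of Usp37 is also at a TSS of Cnot9, and Desi1 and Xrcc6 share 1 peak of 25.9 and 26.0, so the signal there cannot be assigned to 1 gene. When inner starts within 500 bp of another gene's TSS were left out, 515 genes met the rule.

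Among housekeeping genes, chosen after their values were seen, several had a high inner peak and a closed record start. Ctnnb1, the gene of beta-catenin, had heights of 20.3 and 10.2 at a start 4184 bp inside. Ldha, a lactate dehydrogenase gene, had 15.1 and 13.4, and Fth1, the ferritin heavy chain gene, had 17.1 and 12.2. Rps2, a small ribosomal subunit gene, had 17.3 and 19.3, at a start within 500 bp of TSSs of Snhg9 and Snora78 on the opposite strand. For Ctnnb1, Ldha and Fth1 a curated RefSeq transcript began at the inner start and none at the 5' end. In Dnmt1, whose maintenance DNA methyltransferase is known in mouse to have an oocyte form with its own first exon, the inner start 6909 bp inside had 13.0 and 11.1.

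The inner starts were more CpG rich than the closed 5' ends of the same genes. The rule sets an open start beside a closed one, so this contrast is also one of open with closed starts. The ratio of observed to expected CpG within 500 bp on either side had a median of 0.632 at the inner TSS and 0.219 at the 5' end. The median difference within a gene was 0.375, and the inner start was higher in 500 of the 576. A ratio of 0.6 or more was reached at 312 inner starts and at 17 of the 5' ends. The medians were 0.698 at open 5' ends of genes with an inner TSS, and 0.132 at 5' ends of closed genes with no shared inner peak. At open inner starts of genes with an open 5' end the median was 0.537. For closed genes with no shared inner peak, the highest ratio at any inner TSS of the gene had a median of 0.160. Median GC content was 57.9% at the inner start and 46.95% at the 5' end.

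**Figure D2:**
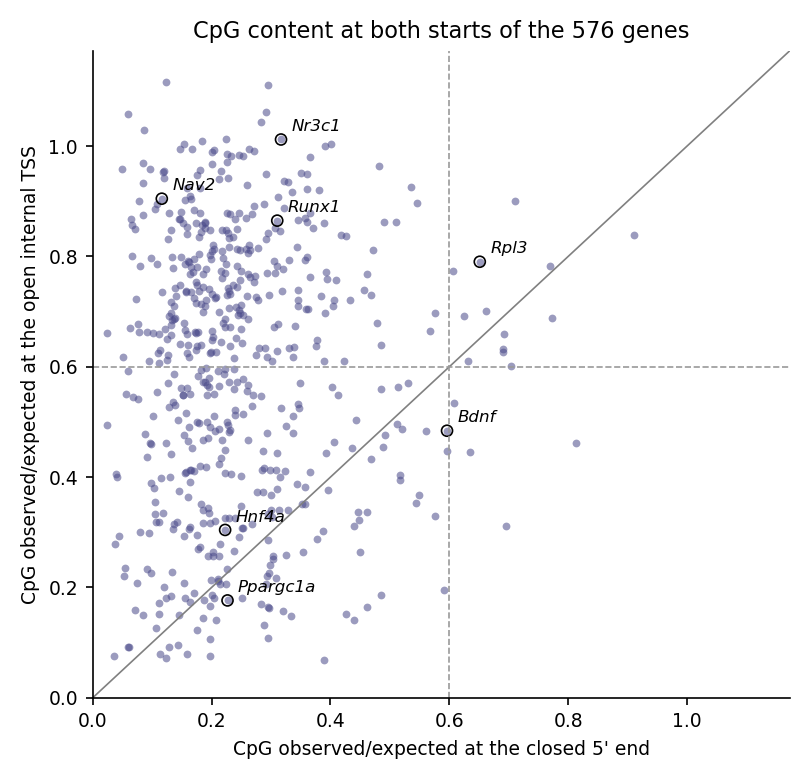
Ratio of observed to expected CpG within 500 bp on either side of the closed 5' end (x axis) and of the open internal TSS (y axis), with 1 point per gene for the 576 genes, a solid line of equality and dashed lines at 0.6. In 500 genes the point lies above the line of equality, and Nr3c1, Nav2 and Runx1 are far above it, while Ppargc1a and Bdnf lie below it.

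Height followed this division, with overlap between the classes. The 312 CpG-rich inner starts had a median height of 8.50 in replicate 1 and 7.30 in replicate 2, and the 264 CpG-poor ones had 1.64 and 1.86. Of the 118 genes with a height of at least 10 in both libraries, 103 were CpG rich. Of the 110 genes below 1 in both libraries, 83 were CpG poor. CpG-poor starts could still be high, as at Glo1 and at Ssc4d, which had 15.7 and 21.6. Among genes with several peaks in each library, the lead peak was the highest of its gene in both in 213 of 293 CpG-rich and in 80 of 232 CpG-poor genes.

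The rule itself placed a peak within 500 bp of the inner start. Its midpoint was within 100 bp of the TSS in both libraries in 326 of the 576 genes, and upstream in both in 360. The midpoint of the peak lay at a median of -29.5 bp from the TSS in replicate 1 and -34.5 bp in replicate 2, where negative is upstream. The SD over the genes was 174 and 185 bp. Peaks at open 5' ends lay at -23.5 and -28.5 bp. The midpoint was upstream in both libraries at 222 of the 312 CpG-rich and 138 of the 264 CpG-poor starts. The peak covered the TSS itself in both libraries in 330 genes. The distance from the 5' end to the inner start had a median of 9595 bp, and it exceeded 10 kb in 283 genes and 100 kb in 35.

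Annotation was compared between both starts, but inner starts were taken from basic transcripts and the 5' end from any transcript, which by itself favours the inner start. A curated RefSeq transcript began within 100 bp of the inner TSS in 449 of the 576 genes, or 77.95%, and of the 5' end in 187, or 32.5%. At the open 5' ends of the 2322 genes with an inner TSS the share was 65.25%. The best transcript at the inner TSS had the highest support level of the annotation in 430 genes, against 200 at the 5' end. The principal isoform began at the inner TSS in 401 genes and at the 5' end in 165. In the 279 genes whose 5' end also belonged to a basic transcript, the gap was smaller: curated transcripts began at 202 inner starts and 159 of the 5' ends, and the principal isoform at 177 and 164. Curated transcripts began at both starts in 127 genes, and in 322 genes they began at the inner start only. In 64 of the 127 genes the coding sequence also began at another codon, Dcun1d4, Iffo2, Tpm3 and Hnf4a among them.

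Over all 576 genes, the transcripts at both starts shared the first codon in 232 and had other first codons in 204. In 140 genes no transcript at the 5' end was annotated as protein-coding, so first codons were not compared. The inner TSS lay in an intron of the other transcripts in 379 genes and in an exon in 197.

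Footprints were found in most of the inner peaks. In replicate 1, 528 of 575 distinct peaks held at least 1 footprint, or 91.8% (Clopper-Pearson interval 89.3 to 93.9%), with a median of 3 per gene. In replicate 2 it was 561 of 575, or 97.6% (95.95 to 98.7%), with a median of 4. The shares in peaks at open 5' ends were 95.3% in replicate 1 and 98.4% in replicate 2. In 494 genes a footprint of replicate 1 was overlapped by one of replicate 2, and in 9 genes neither library had a footprint. The most footprints were in Srek1ip1, with 14 and 11, in Slc39a10 with 10 and 12, and in Pabpn1, the nuclear poly(A)-binding protein gene, with 8 and 12. The peaks of Slc39a10 and Pabpn1 did not cover the inner TSS in either library. Their midpoints in replicates 1 and 2 lay at 425.5 and 395.5 bp in Slc39a10, and at -592.5 and -602.5 bp in Pabpn1. The inner start of Srek1ip1 lies within 500 bp of a TSS of Cwc27 on the opposite strand.

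**Figure D3:**
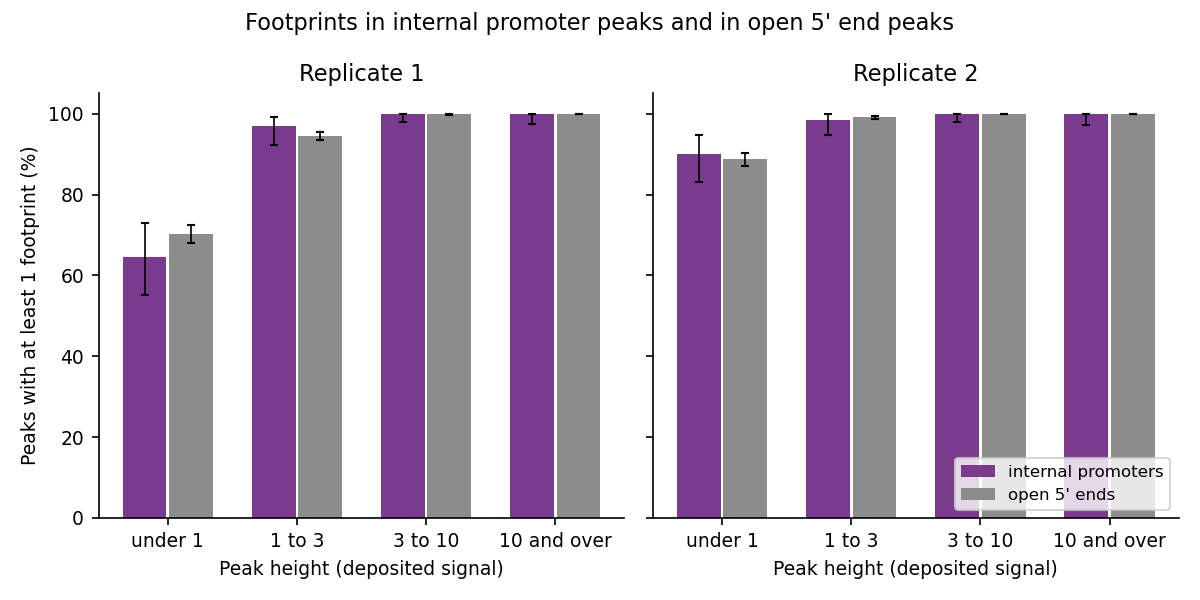
Share of peaks with at least 1 footprint (y axis, percent) by class of peak height in the deposited unit (x axis) for inner peaks of the 576 genes (purple) and for open 5' ends (grey) in each replicate, with 95% Clopper-Pearson intervals. In both groups the share rises from the lowest class, 64.5% and 70.3% in replicate 1, to at least 94.5% in the classes above.

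Within a class of height, the shares at inner starts and at open 5' ends were close. Below a height of 1, the share in replicate 1 was 64.5% at inner starts (55.25 to 72.95%) and 70.3% at open 5' ends (67.9 to 72.5%). In replicate 2 it was 90.0% and 88.8%. From 3 to 10 the inner peaks of replicate 1 held 4.04 footprints on average and those at open 5' ends 4.03, and from 10 upward 4.93 and 4.88. In replicate 2 these means were 4.60 and 4.86 from 3 to 10, and 5.03 and 5.00 from 10 upward. From 1 to 3 the inner peaks of replicate 2 held fewer, 3.92 against 4.23. The intervals cover counting error only.

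**Figure D4:**
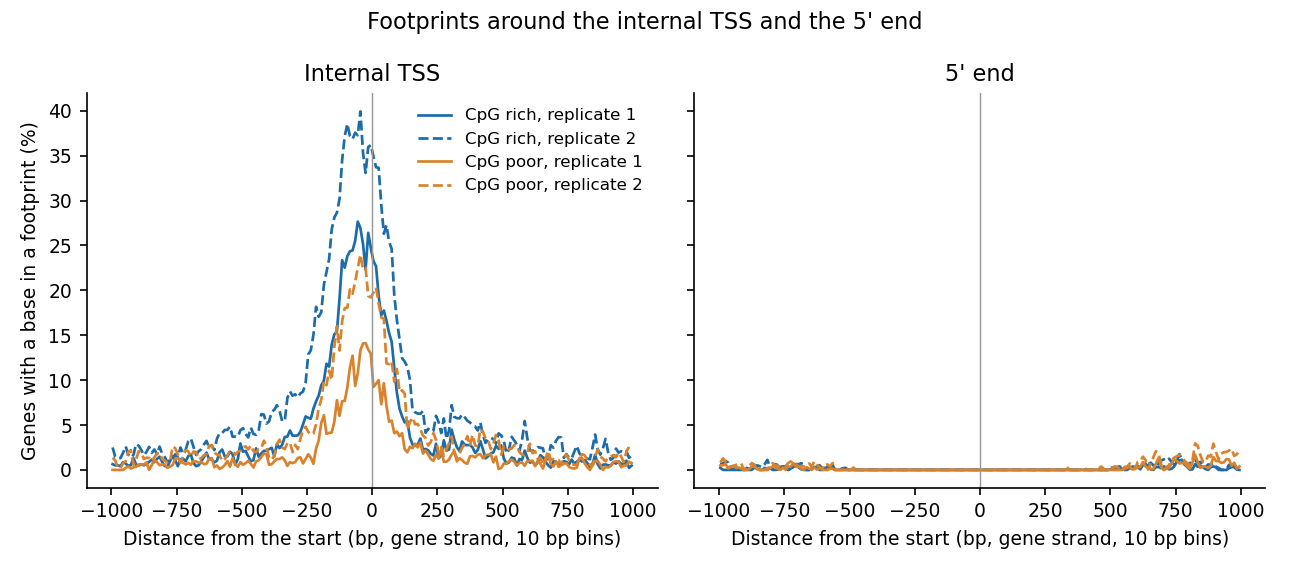
Share of the genes with a base in a footprint (y axis, percent) in 10 bp bins from 1000 bp upstream to 1000 bp downstream (x axis, gene strand) of the internal TSS (left) and of the 5' end (right), for CpG-rich (blue) and CpG-poor (orange) genes in replicate 1 (solid) and replicate 2 (dashed). The highest bins at the internal TSS lie 20 to 60 bp upstream, with 27.7% and 39.9% of CpG-rich genes, and the 5' ends stay near 0.

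Footprints gathered just upstream of the inner TSS. The fullest bin of the CpG-rich genes began at -60 bp in replicate 1, with 27.7% of the genes, and at -50 bp in replicate 2, with 39.9%. For CpG-poor genes it began at -30 bp with 14.1% and at -50 bp with 24.0%. Within 500 bp of the 5' end, footprints occurred in 0 genes in replicate 1 and 2 genes in replicate 2. Footprints lie in open chromatin, so their lack at the 5' end follows largely from the choice of the genes. The rule also required a peak within 500 bp of the inner start, so footprints near it follow largely from that choice too. The midpoints of those peaks had medians of -29.5 bp in replicate 1 and -34.5 bp in replicate 2.

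Short consensus motifs were counted in the central 150 bp of each peak of replicate 1, reading both strands, at inner starts, at open 5' ends and in distal peaks, which lie over 1 kb from every TSS. GGGCGGG, for SP and KLF proteins, was in 47.6% of CpG-rich inner peaks, 22.4% of CpG-poor ones, 42.1% of open 5' ends and 4.41% of distal peaks. CCGGAAGT, for ETS proteins, was in 6.43%, 1.52%, 6.04% and 0.386%. Of the other motifs, those for NFY and NRF1 were less frequent in CpG-rich inner peaks than at open 5' ends. Those for CREB and ATF, for YY1 and for TFAP2 were not. AGCCAAT, for NFY, was in 4.50%, 6.44%, 8.22% and 2.23%, and GCGCATGCG, for NRF1, in 1.29%, 0.758%, 3.12% and 0.195%. TGACGTCA, for CREB and ATF, was in 3.54%, 2.27%, 2.99% and 0.304%. AAGATGGCG, for YY1, was in 1.93%, 0.758%, 1.69% and 0.220%, and GCCNNNGGC, for TFAP2, in 18.3%, 15.5%, 17.6% and 7.59%. TGANTCA, for AP-1, was in 1.93%, 3.41%, 1.85% and 5.93%. CAAAGTCCA, for HNF4, was in 3 of 311 CpG-rich and 2 of 264 CpG-poor inner peaks, too few to compare (Clopper-Pearson intervals 0.199 to 2.79% and 0.0919 to 2.71%). GC-rich letters are also more common where the sequence is GC rich, and that was not separated here. A match names letters only and is no site of a factor.

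Among 69 proximal tubule genes, 54 had an open 5' end, 8 had a closed 5' end and an inner TSS, and 6 of these 8 had an open inner start, against 27.1% of closed genes in general. Hnf4a, the nuclear receptor gene central to proximal tubule identity, is known to have a downstream promoter used in adult liver and kidney and an upstream one used in pancreas. The inner start of Hnf4a, 40379 bp inside, had a height of 4.16 in replicate 1 and 4.26 in replicate 2, with curated transcripts and different first codons at both starts. Slc6a19, the neutral amino acid transporter gene of the brush border, had 3.07 and 2.12 at 4085 bp. Ggt1, the gamma-glutamyltransferase gene, had 2.77 and 2.45, and Mme, the gene of the brush-border peptidase neprilysin, had 2.42 and 2.82 at 54558 bp. The acyl-CoA synthetase genes Acsm1 (1.75 and 1.26) and Acsm2 (0.530 and 0.849) were lowest, and Acsm2 had no footprint in replicate 1 and 5 in replicate 2. Only Mme of the 6 had a CpG-rich inner start. Pdzk1 and Slco1a6 had no inner peak shared by both libraries.

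**Figure D5:**
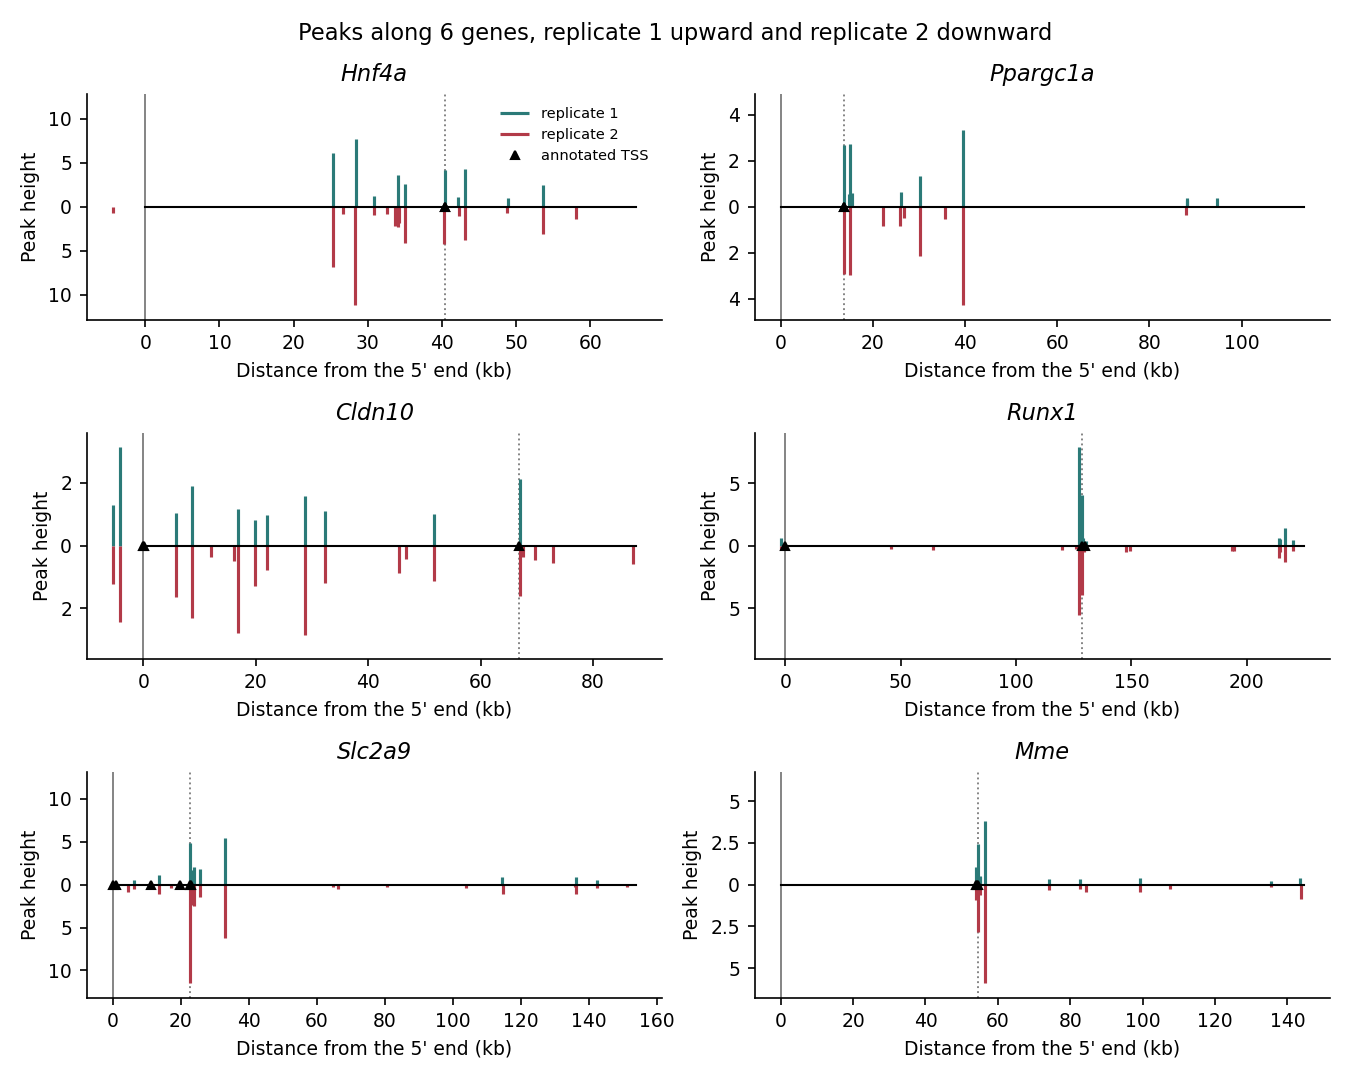
Peaks along 6 genes by distance from the 5' end in kb (x axis) and height in the deposited unit (y axis), replicate 1 drawn upward and replicate 2 downward, with triangles at TSSs of basic transcripts, a solid line at the 5' end and a dotted line at the lead inner start. No peak stands at the solid line in any of the 6 genes, and in Hnf4a the peaks near 25 and 28 kb are higher than the promoter peak of 4.16 and 4.26 at 40 kb.

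The lead inner start was not the highest open site of every gene. In Hnf4a the highest peak lay at 28.4 kb from the 5' end in replicate 1, with a height of 7.69, and at 28.3 kb in replicate 2, with 11.2. In Mme a peak at 56.4 kb had 3.84 and 5.89, above the promoter peak. In Ppargc1a, the gene of the coactivator PGC-1 alpha, the inner start at 13835 bp had 2.67 and 2.93, while a peak at 39.7 kb had 3.32 and 4.28. In Runx1 the peak at 127.3 kb had 7.85 and 5.50, and the lead start at 128821 bp had 4.06 and 3.94. These higher sites had no basic TSS within the window of 500 bp.

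In the loop of Henle and distal tubule, 2 of 4 closed genes with an inner TSS had an open inner start, beside 27.1% of all such genes. Cldn10, a tight-junction gene with kidney isoforms that differ in the first exon, had 2.14 and 1.61 at 66824 bp, with different first codons at both starts. Pvalb, the parvalbumin gene of the distal convoluted tubule, had 0.872 and 0.537. In the collecting duct list 3 of 7, or 42.9%, did. Nr3c1, the glucocorticoid receptor gene with many alternative first exons, had 10.3 and 5.23. Hmx2 had 0.872 and 0.999, and Kcnma1, the gene of a large-conductance potassium channel, had 0.564 and 0.532. The heights of Nr3c1 and of Pvalb were lower in replicate 2 but within 2-fold.

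All 5 closed genes with an inner TSS in the list of glomerulus, vessel and stroma had an open inner start, beside 27.1% of all such genes, and all 5 were CpG poor. Egfl7, an endothelial secreted factor gene, had 4.84 and 3.29. Synpo, the gene of the podocyte actin-associated protein synaptopodin, had 2.24 and 1.84 at 35806 bp. The endothelial genes Ptprb (2.00 and 1.91) and Pecam1 (1.32 and 1.58) were lower. Mecom, a zinc-finger transcription factor gene, had 1.36 and 1.20 at 534852 bp. In each of the 5 genes the curated transcript began at the inner start and not at the 5' end. Of 6 closed immune genes 2 were open inside, or 33.3%, close to the 27.1% of all closed genes with an inner TSS: Coro1a had 1.41 and 1.44, and Runx3 had 0.974 and 0.512.

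Among transcription factor and cofactor genes, 15 of 18 closed genes with an inner TSS were open at it, or 83.3% beside 27.1% of all such genes. Beside Hdac4, the highest were Vdr, the vitamin D receptor gene, with 5.73 and 3.18 at 2320 bp, and Nfic, with 4.54 and 3.96. Nfib had 4.13 and 3.37 at 199980 bp. Runx1 is known to have a distal and a proximal promoter, and here the proximal region was open and the distal one closed. Runx2 and Runx3, which share this arrangement, were open at inner starts 78149 and 31844 bp inside, with 1.85 and 1.02 at Runx2. The lowest were Erg (0.795 and 0.919) and Sox6 (0.402 and 0.437). Hdac9, Hoxd11 and Tfap2b had no inner peak shared by both libraries.

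Of 26 closed genes known for alternative promoters, 16 were open inside, or 61.5% beside 27.1% of all closed genes with an inner TSS. Tpm3, a tropomyosin gene whose downstream promoter gives short non-muscle forms, had 9.02 and 13.6 at 6891 bp, with different first codons. Abcg2, the gene of a urate and drug efflux pump, had 4.66 and 3.55 at 56041 bp. Dmd, whose internal promoters give short dystrophins, was open 2099543 bp inside, the longest distance of all 576 genes, with 2.41 and 1.99. Next in distance were Celf2, an RNA-binding protein gene, with 0.444 and 0.566 at 787950 bp, and Dab1, a reelin signalling adaptor gene, with 3.64 and 3.90 at 748231 bp. Cdh18, a cadherin gene, had 0.461 and 0.676 at 487441 bp. The growth factor gene Bdnf had 1.97 and 2.95, and Ntrk3, a neurotrophin receptor gene, had 0.453 and 0.437. Cyp19a1, the aromatase gene, was among the 10 without a shared inner peak.

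Of 19 closed genes best known from neurons and muscle, 8 were open inside, or 42.1% beside 27.1% of all closed genes with an inner TSS, with a median height of 0.872 in replicate 1 and 0.743 in replicate 2. Ttn, the titin gene, had 1.53 and 2.46, and Cacna1c, a calcium channel gene, had separate peaks on either side of its start at 88229 bp, of 1.61 downstream in replicate 1 and 1.18 upstream in replicate 2. Shank2 (0.393 and 0.432) and Scn8a (0.350 and 0.333) were lowest. The troponin genes Tnni1, Tnnt1, Tnnt2 and Tnnt3 had no inner peak shared by both libraries.

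Cytoskeletal and adhesion genes were open inside in 8 of 9, or 88.9% beside 27.1% of all closed genes with an inner TSS, with median heights of 3.52 and 2.78. Nav2, a microtubule-binding navigator gene, had 10.3 and 9.96 at 337473 bp. Pdlim2 had 5.58 and 7.28, and Eps8, an actin-capping protein gene, had 4.28 and 3.09. Sorbs2 had 0.966 and 1.77 at 120015 bp. Macf1 was the exception. The 9 lists overlap, and each holds few closed genes, so that these counts describe the named genes and are no test of the lists.

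The 5 lowest inner peaks by geometric mean began with Frmpd4, with 0.179 in replicate 1 and 0.134 in replicate 2. Tbx22, a T-box transcription factor gene, had 0.222 and 0.119. Iigp1, an interferon-inducible GTPase gene, had 0.265 and 0.184, and Cacnb2, a calcium channel subunit gene, had 0.291 and 0.194. Fgf14, a neuronal fibroblast growth factor family gene, had 0.265 and 0.214. A stricter peak list deposited beside the one used held the inner start in both libraries for 519 of the 576 genes and in neither for 24.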

How the data were processed

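DNase-seq libraries of kidney from 2 mice formed 1 group. The labels give both the same donor code but different animal numbers and biosamples, and they were read as separate animals, which the replicate spread assumes. Per the labels the files are on mm10. For the aligner and the callers, names and versions were not given in the sources used. The deposited signal of a peak is its height; per the file descriptions and the values it was made for each library alone. The footprint q-value deposited by the authors is 0.01 in every row and was read as a threshold. The deposited false discovery rates per base (q-values) are listed below 0.05 only. Absolute depth is unknown.

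Starts came from GENCODE M21 basic transcripts and the 5' end from the gene record. A peak was at a start when it overlapped 500 bp on either side by 1 bp or more. With several open inner starts, the one with the highest geometric mean height was used. CpG ratios and GC were taken over 500 bp on either side in GRCm38.p6, and 0.6 was the CpG-rich limit. RefSeq starts were curated transcripts on the same strand within 100 bp. Peaks more than 1000 bp from every TSS and shared by the libraries were the distal set. The membership rule was tested on simulated data. Python 3.11.15, pandas 2.3.3, numpy 2.4.6, scipy 1.17.1 and pysam 0.24.0 were used.

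The genes, 9 gene lists, 17 motifs and limits were chosen with earlier results of these data known. The text names the 15 highest and 5 lowest genes, those with the most footprints and longest distances, and up to 6 per list, some shown in short, and a few others chosen after their values were seen. No test was run, since there is 1 group. Alignment of CAST/EiJ reads to a C57BL/6J sequence may lower peaks, and its effect was not tested.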

Additional observations from a re-analysis of the deposited data

How the results depend on the processing

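No paired analysis was possible because there is 1 group of 2 libraries. The main values were 576 genes, a share of 27.1%, a median height of 3.89 over both libraries, a footprint share of 94.7% and a CpG difference of 0.375. Only the CpG difference could change sign, and it stayed positive under every setting. The number of genes stayed within 1.5 times except with the 5' end of basic transcripts, where it was 349, the share 19.74%, the height 3.05 and the CpG difference 0.342. With an inner start over 5 kb inside, the share was 34.3% and the height 3.58. Lists restricted to high peaks raised the height, to 4.57 with the stricter list and 5.51 with the upper 50% of peaks, where the share was 23.7% and the footprint share 99.2%. With all transcripts the height was 3.40 and the CpG difference 0.313. Without starts near another gene the share was 25.1% and the height 3.46. Leaving out either replicate gave 642 and 704 genes, shares of 29.6 to 30.5%, heights of 3.09 to 3.76, footprint shares of 89.6 to 94.5% and CpG differences of 0.3437 to 0.3442. Replicate 2 had more peaks and footprints: of 113 genes open at the 5' end in 1 library only and inside in both, 101 had the 5' end peak in replicate 2. Depth is unknown, so its part in these differences was not tested.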
